A study of Saccharomyces cerevisiae with 9 samples.

Results

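The 33 genes described here are 32 subunit genes of the yeast 26S proteasome (PRE1 to PRE10, PUP1 to PUP3, SCL1, RPT1 to RPT6, RPN1 to RPN3 and RPN5 to RPN13) and RPN4, the gene of the transcription factor that regulates them. The gene of the small lid subunit, SEM1, is not among the 32. The 33 were taken as known subunits and their regulator, by systematic gene ID (YPR103W for PRE2, YHR200W for RPN10, YFR052W for RPN12, YDL020C for RPN4). All 33 were found among the 7126 genic regions measured. In the sam1Δ/sam1Δ mutant strain none of the 33 met the cutoffs against wildtype, beside 1.15% of all genes tested. In the sam2Δ/sam2Δ mutant strain the lid subunit gene RPN12 was higher than in wildtype, by 0.77 on the log2 scale, and the ubiquitin receptor gene RPN10 was lower, with a log2FC of -0.79, while RPN4 and the other 30 genes did not meet the cutoffs. Neither of those differences passed a Benjamini-Hochberg adjusted P of 0.05. Of all genes tested in sam2Δ/sam2Δ against wildtype, 9.85% met the cutoffs. Without wildtype replicate 1 the log2FC of RPN12 was 0.54 and it no longer met them.

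Poly-A RNA was sequenced from 9 libraries of W303 diploid budding yeast grown overnight at 30 °C and harvested at an OD600 of 0.5 to 0.6, with 3 libraries each of sam1Δ/sam1Δ, sam2Δ/sam2Δ and wildtype. In the sam1Δ/sam1Δ strain both copies of SAM1 were replaced by KANMX and the medium was synthetic complete (SC) with G418. In the sam2Δ/sam2Δ strain both copies of SAM2 were replaced by LEU2 and the medium was SC without leucine, while wildtype grew in SC with neither change. SAM1 and SAM2 encode the yeast S-adenosylmethionine (AdoMet) synthetases. Deletion, marker and medium changed together, so their parts in any difference cannot be told apart. Both mutants were set against the same wildtype libraries, and the labels do not say whether replicates came from separate cultures, so the P-values measure only the spread between these libraries.

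The 26S proteasome degrades proteins tagged with ubiquitin chains. Its 20S core is a barrel of alpha rings, which form the gate, around beta rings, some of whose subunits are the proteases. The 19S particle caps the barrel: its base holds a ring of ATPases that unfold the substrate and receptors that bind ubiquitin, and its lid holds the enzyme that removes the chain. In yeast the subunit genes are activated together by Rpn4, a short-lived protein that the proteasome itself degrades. Rpn4 binds an element called PACE (proteasome-associated control element) ahead of its target genes.

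The sequences the subunit genes share were read from the R64 reference genome of RefSeq, in a window of 250 bases before to 50 bases after the start codon. The PACE letters GGTGGCAAA, searched on both strands, occurred in 27 of 32 subunit windows (84.4%) and in 72 of 6001 windows of all protein-coding genes (1.20%). Each of the 27 windows held 1 match, which began 183 to 84 bases before the start codon (median 120), with 19 matches on the strand of the gene and 8 on the opposite strand. The letters are shown for a protease gene with a match on its own strand (PRE2), for a called gene with a match on the opposite strand (RPN12) and for the 20S gene with the lowest log2FC in sam2Δ/sam2Δ (PRE6), with the match in capitals.
PRE2, chrXVI:732174-732222, plus strand: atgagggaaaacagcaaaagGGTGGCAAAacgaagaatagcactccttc
RPN12, chrVI:252388-252436, plus strand: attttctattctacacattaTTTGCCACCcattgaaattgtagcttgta
PRE6, chrXV:255208-255256, plus strand: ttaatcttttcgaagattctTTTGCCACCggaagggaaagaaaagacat

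The 5 subunit genes without the 9 letters each held a stretch that differed from them at 1 position, as did 7.57% of all windows at 1 mismatch or fewer. With positions counted from 1 at the first G of GGTGGCAAA, PRE5, PUP1 and RPN8 carried the same substitution, G1A, so that they kept the last 8 letters of the element. RPN10 and RPN13, which encode ubiquitin receptors, carried A7G in place of it. The letters with G1A were found in 0.717% of all windows and those with A7G in 0.450%. The stretches of these 5 genes are given so that the changed letter can be seen, with the 9 aligned bases in capitals, and in RPN10 they read on the opposite strand.
RPN8, chrXV:817075-817123, minus strand: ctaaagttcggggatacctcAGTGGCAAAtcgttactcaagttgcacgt
PUP1, chrXV:631881-631929, minus strand: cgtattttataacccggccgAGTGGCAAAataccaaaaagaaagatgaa
PRE5, chrXIII:901542-901590, plus strand: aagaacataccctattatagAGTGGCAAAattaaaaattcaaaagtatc
RPN13, chrXII:965646-965694, minus strand: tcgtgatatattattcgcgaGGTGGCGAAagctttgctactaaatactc
RPN10, chrVIII:498958-499006, plus strand: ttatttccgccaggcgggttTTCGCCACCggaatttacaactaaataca

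RPN4 had no match in its own window, where the nearest stretch differed from PACE at 3 positions. Its upstream region is known for elements of the regulators that activate it, the drug resistance factors Pdr1 and Pdr3, the oxidative stress factor Yap1 and the heat shock factor Hsf1. In the 600 bases before its start codon, on both strands, the Pdr1 and Pdr3 element (TCCGCGGA, TCCGTGGA or TCCACGGA) began 442 and 399 bases before the start codon and was found in 1.98% of all such regions. The Yap1 element (TTACTAA or TTAGTAA) began 374 bases before it and was found in 13.7% of them. The heat shock element, as 3 alternating units, began 348 and 21 bases before it and was found in 1.70%. The Pdr1 and Pdr3 and the Yap1 matches are shown in capitals because they sit close together, and they overlap no match of another motif.
RPN4 first Pdr1 and Pdr3 match, chrIV:417128-417165, minus strand: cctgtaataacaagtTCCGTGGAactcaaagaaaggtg
RPN4 second Pdr1 and Pdr3 match, chrIV:417085-417122, minus strand: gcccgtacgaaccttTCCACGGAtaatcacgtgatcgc
RPN4 Yap1 match, chrIV:417061-417097, minus strand: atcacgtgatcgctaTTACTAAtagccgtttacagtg

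**Figure D1:**
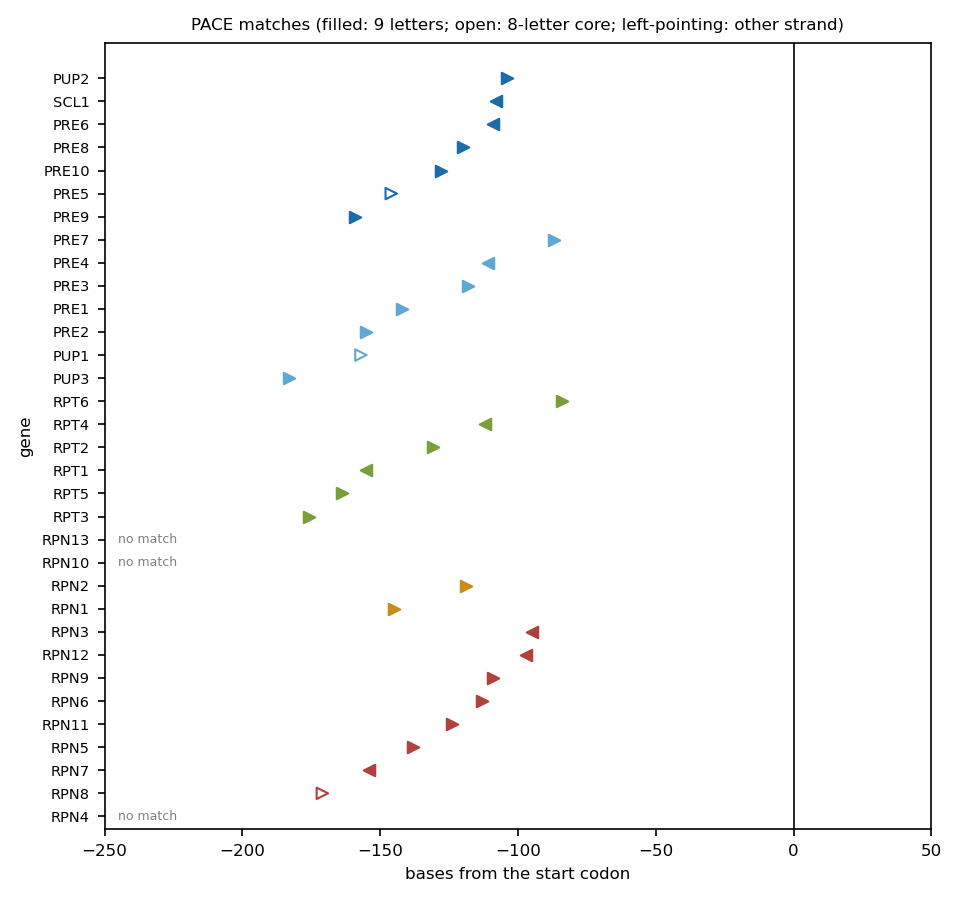
Start of the PACE match in bases from the start codon (x axis) for each of the 33 genes (y axis, grouped and coloured by part of the proteasome), with filled marks for the 9 letters, open marks for the last 8 letters only and left-pointing marks for the opposite strand. The 27 filled marks lie between 183 and 84 bases before the start codon, and RPN10, RPN13 and RPN4 have no mark.

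The unit throughout is the deposited signal, the estimated reads of a gene divided by a factor of its library, with the worth of 1 read estimated at 0.443 to 2.18 signal from the steps between low values. In those steps 97.0% to 98.6% of the values of a library were whole within 0.05, so the depths that follow, 4901570 to 23801089 reads per library and at least 519 reads for each of the 33 genes in every library, are estimates. Of the 33 genes 32 were alone at their locus while RPT1 shared its locus with 1 other gene. The deleted genes matched the labels: SAM1 was at 0 to 1.77 signal in sam1Δ/sam1Δ against 4589 to 17140 in wildtype, and SAM2 was at 2.43 to 6.89 in sam2Δ/sam2Δ against 17280 to 39411 in wildtype. Libraries also differed in genes of cell type. In sam2Δ/sam2Δ replicate 3 the 4 alpha-specific genes summed to 2320 signal and the 7 haploid-specific genes to 2027, against at most 551 and 911 in the 8 other libraries, and none of these genes was at 0 in all libraries. The pheromone gene MF(ALPHA)1 alone was at 1473 there, against 18.2 to 56.6 in the others. The a-specific genes summed to 874 in sam2Δ/sam2Δ replicate 1, against 415 to 567 in the 8 other libraries. Diploid cells are known to keep such genes low, and more cells of another type and more RNA per cell cannot be told apart in bulk RNA. Log2FC without sam2Δ/sam2Δ replicate 3 are given beside most of the called genes.

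Wildtype replicate 1 was the library in which the proteasome genes stood furthest below the wildtype mean. It had the lowest signal of all 9 libraries for 25 of the 32 subunit genes, whereas it was the lowest for 25.7% of all genes, and sam2Δ/sam2Δ replicate 3 was the lowest for the other 7. Its median log2 deviation from the wildtype mean was -0.41 over the 32 subunits, against 0.22 and 0.20 in wildtype replicates 2 and 3, while over all genes it was 0.01. The 32 subunits took 0.520% of its signal, against 0.842% and 0.854% in the other wildtype libraries, 0.724% to 0.830% in sam1Δ/sam1Δ and 0.803% to 0.851% in sam2Δ/sam2Δ. RPN10 did not share this: it was slightly higher in wildtype replicate 1 than in replicates 2 and 3, with a deviation of 0.04. The middle SD of a subunit on the log2 scale was 0.13 in sam1Δ/sam1Δ and 0.16 in sam2Δ/sam2Δ against 0.35 in wildtype. Over all genes the middle SD was 0.22 in sam1Δ/sam1Δ and 0.28 in sam2Δ/sam2Δ against 0.34 in wildtype.

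**Figure D2:**
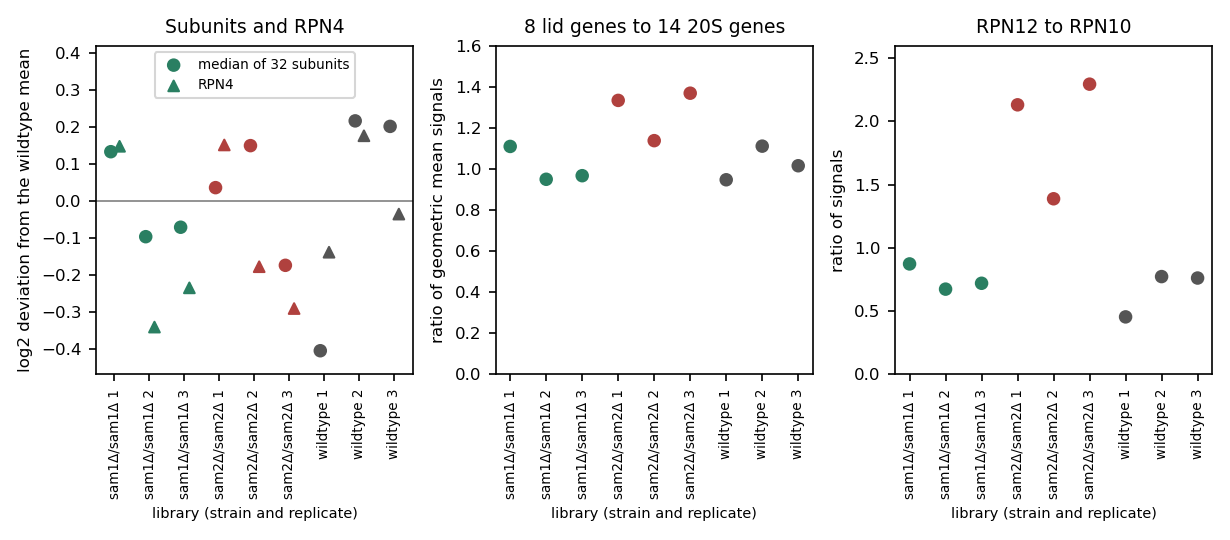
Per library (x axis), the log2 deviation from the wildtype mean of RPN4 (triangles) and the median of the 32 subunits (circles), the ratio of the geometric mean signals of the 8 lid genes and the 14 20S genes, and the ratio of RPN12 to RPN10 signal. Wildtype replicate 1 has the lowest subunit median, at -0.41, and the RPN12 to RPN10 ratio lies between 1.39 and 2.29 in sam2Δ/sam2Δ and below 1 in the 6 other libraries.

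Levels between genes were compared as signal per kb of coding span. RPN4 had the highest level of the 33 in every strain, with 7214 ± 1334 signal per kb in sam1Δ/sam1Δ, 7385 ± 1212 in sam2Δ/sam2Δ and 7916 ± 896 in wildtype (SD, n = 3 each). Among the subunits the alpha gate subunit SCL1 was highest, at 4580 ± 313 signal per kb in sam1Δ/sam1Δ, 4350 ± 463 in sam2Δ/sam2Δ and 4609 ± 947 in wildtype. The base scaffold RPN1 was lowest, at 932 ± 152 in sam1Δ/sam1Δ, 994 ± 80.3 in sam2Δ/sam2Δ and 924 ± 213 in wildtype. Most neighbours in the order did not differ beyond their spread: in wildtype PUP2 (3751 ± 1012), PRE9 (3684 ± 727), PUP3 (3610 ± 554) and PRE4 (3588 ± 908) overlapped throughout. A group of 5 genes, RPN1, RPN2, RPN3, RPN7 and RPN9, lay at or below 1383 signal per kb on average in wildtype, and all 5 belong to the 19S particle. Their coding spans were 1182 to 2982 bases, against at most 867 in the 20S genes, and an effect of length was not tested. Other 19S genes were high in wildtype, such as RPN6 (3367, with a coding span of 1305 bases) and RPT6 (3305, with 1218 bases).

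**Figure D3:**
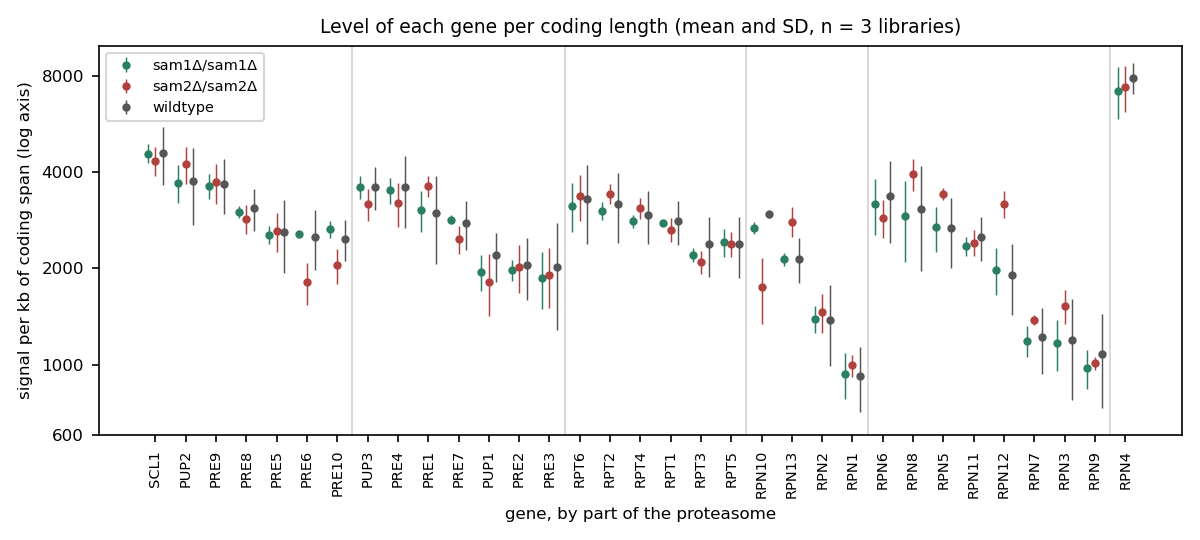
Mean signal per kb of coding span with its SD (n = 3 libraries, log axis) for each of the 33 genes in sam1Δ/sam1Δ, sam2Δ/sam2Δ and wildtype, grouped by part of the proteasome. RPN4 is highest in all 3 strains, and the largest separations between strains are those of RPN10 and RPN12 in sam2Δ/sam2Δ.

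The first comparison asked whether loss of SAM1 changed the proteasome genes. In sam1Δ/sam1Δ against wildtype 0 of 33 met the cutoffs (a limma P of 0.05 or less before adjustment, and a log2FC of 0.58 or more in either direction), beside 1.15% of the 6109 genes tested, 0.622% called higher and 0.524% called lower. None passed the P cutoff alone, which 2.1% of all genes did, the lowest adjusted P of the 33 was 1.00, and limma-voom also called 0. The 33 log2FC ran from -0.17 (PUP1) to 0.11 (PRE10), with 16 above 0 and 17 below, a median of -0.0023 against -0.01 over all genes tested, and an SD over genes of 0.066 against 0.34. The SD over all genes takes in genes of far lower signal than the 33 and the deleted SAM1, so the 2 SDs are not of like sets. RPN10 was the only gene of the 33 whose groups did not overlap, at 2240, 2191 and 2053 signal in sam1Δ/sam1Δ against 2458, 2336 and 2374 in wildtype, a log2FC of -0.15 ± 0.13 (SE), beside 6.53% of all genes with no overlap, 3.32% higher and 3.21% lower. Without wildtype replicate 1 the log2FC of all 33 genes were below 0, from -0.41 to -0.02 with a median of -0.21 (-0.0025 over all genes tested), and still 0 of 33 were called. Without wildtype replicate 2 the median was 0.10, with 29 of 33 above 0.

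The second comparison asked the same of SAM2. In sam2Δ/sam2Δ against wildtype 1 of 33 genes was higher (RPN12) and 1 lower (RPN10), beside 5% of all 6099 genes tested called higher and 4.85% called lower, 9.85% in all. The groups did not overlap for 3 genes that were higher (RPN12, RPN13 and RPN5) and 1 that was lower (RPN10), beside 11.1% and 11.2% of all genes, 22.3% in all. The median of the 33 log2FC was -0.0013, against -0.0075 over all genes tested, and the values spread from -0.79 to 0.77 with an SD over genes of 0.29, against 0.50 over all genes. That SD over all genes likewise takes in genes of far lower signal and the deleted SAM2. Of the 33 genes 16 were again above 0 and 17 below. Without wildtype replicate 1 the median was -0.20 with 27 of 33 below 0, and without sam2Δ/sam2Δ replicate 3 it was 0.10 with 19 of 33 above 0.

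**Figure D4:**
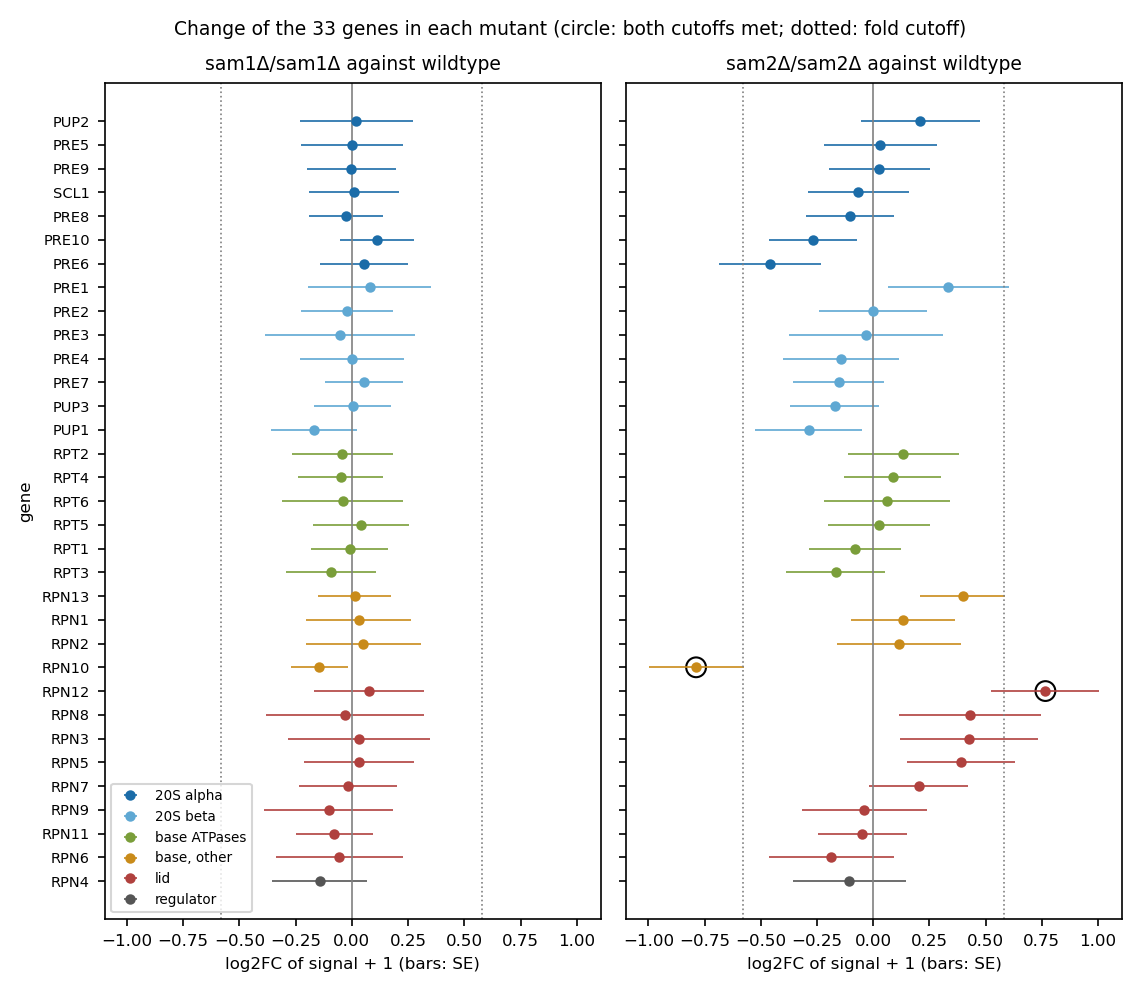
Log2FC of signal + 1 with its SE (x axis) for each of the 33 genes (y axis, coloured by part of the proteasome) in sam1Δ/sam1Δ against wildtype (left) and sam2Δ/sam2Δ against wildtype (right), with dotted lines at the fold cutoff and circles around genes that met both cutoffs. The left values stay between -0.17 and 0.11, and on the right RPN10 (-0.79) and RPN12 (0.77) are circled.

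RPN4 (chromosome IV, 415113 to 416708, R64), the regulator, did not meet the cutoffs in either mutant. Its signal was 13932, 9925 and 10683 in the sam1Δ/sam1Δ libraries, 13967, 11115 and 10276 in the sam2Δ/sam2Δ libraries, against 11422, 14210 and 12268 in wildtype. The groups overlapped, and in each mutant replicate 1 was the highest. Its log2FC was -0.14 ± 0.21 (SE, 95% interval -0.66 to 0.37) in sam1Δ/sam1Δ and -0.11 ± 0.25 (-0.70 to 0.49, adjusted P = 0.891) in sam2Δ/sam2Δ. These intervals do not exclude a change of the size of the fold cutoff in the lower direction.

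The alpha ring genes, whose products form the gate of the 20S core, held no called gene in either mutant, and 4 of 7 were below 0 in sam2Δ/sam2Δ with a median of -0.07. Without wildtype replicate 1 all 7 were below 0 (median -0.23). PRE6 had the lowest value of the 14 20S genes, at 1324, 1616 and 1213 signal in sam2Δ/sam2Δ against 1446, 2148 and 2169 in wildtype. The sam2Δ/sam2Δ libraries lay below wildtype replicates 2 and 3, and only wildtype replicate 1 fell among them. Its log2FC was -0.46 ± 0.23 (SE, adjusted P = 0.444), and without wildtype replicate 1 it met the cutoffs. In sam1Δ/sam1Δ PRE6 was at 1958, 1946 and 1971, the tightest replicates of the 33 genes, with a log2FC of 0.05 ± 0.20. PRE10, which had the highest log2FC in sam1Δ/sam1Δ (0.11 ± 0.16), had -0.27 ± 0.20 in sam2Δ/sam2Δ, with 1695, 2023 and 1606 signal there against 1776, 2355 and 2299 in wildtype.

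The beta ring holds the proteases, PRE3 (cleavage after acidic residues), PUP1 (after basic residues) and PRE2 (after hydrophobic residues). PRE2 was at 1791, 2028 and 1435 signal in sam2Δ/sam2Δ and 1862, 1625 and 1650 in sam1Δ/sam1Δ, against 1321, 2038 and 1942 in wildtype, with log2FC of -0.0013 ± 0.24 in sam2Δ/sam2Δ and -0.02 ± 0.20 in sam1Δ/sam1Δ. PRE3 was at 1529, 1723 and 1115 in sam2Δ/sam2Δ and 1765, 1248 and 1275 in sam1Δ/sam1Δ, against 893, 1808 and 1941 in wildtype, with log2FC of -0.03 ± 0.34 in sam2Δ/sam2Δ and -0.05 ± 0.34 in sam1Δ/sam1Δ. For both genes the wildtype libraries spanned the whole range of the mutants. PUP1 was at 1470, 1718 and 1099 in sam2Δ/sam2Δ and 1760, 1471 and 1372 in sam1Δ/sam1Δ, against 1384, 1868 and 1945 in wildtype, with log2FC of -0.29 ± 0.24 in sam2Δ/sam2Δ and -0.17 ± 0.19 in sam1Δ/sam1Δ. It had the lowest log2FC of the 33 in sam1Δ/sam1Δ, and in both mutants its libraries overlapped with wildtype. Of the 7 beta genes 6 were below 0 in sam2Δ/sam2Δ (median -0.14, and -0.31 without wildtype replicate 1), the exception being PRE1, a non-proteolytic subunit, at 0.33 ± 0.27. Without sam2Δ/sam2Δ replicate 3 the median was -0.03, with 4 of 7 below 0.

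The 6 base ATPase genes RPT1 to RPT6, whose products unfold the substrate, showed the narrowest range of the parts of the proteasome against wildtype. In sam2Δ/sam2Δ their log2FC ran from -0.17 (RPT3) to 0.13 (RPT2) with a median of 0.04, and in sam1Δ/sam1Δ the median was -0.04. Without wildtype replicate 1 all 6 were below 0 in both mutants, with medians of -0.18 in sam2Δ/sam2Δ and -0.24 in sam1Δ/sam1Δ. None was called and none had groups that did not overlap. The base scaffold genes RPN1 and RPN2 were likewise not called, with 0.13 ± 0.23 and 0.11 ± 0.28 in sam2Δ/sam2Δ.

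RPN10 (chromosome VIII, 499079 to 499885, R64), the ubiquitin receptor that sits between base and lid, was the lowest of the 33 in sam2Δ/sam2Δ. Its signal was 1370, 1755 and 1100 in sam2Δ/sam2Δ, against 2458, 2336 and 2374 in wildtype. Every sam2Δ/sam2Δ library lay below every wildtype library, and the lowest was replicate 3, the library with high alpha-specific genes. The mean was 1409 ± 329 signal against 2389 ± 62.7 (SD, n = 3 each), a difference of -41.0%, and the log2FC was -0.79 ± 0.21 (SE, adjusted P = 0.247). It still met the cutoffs when any 1 library of the comparison was left out, with log2FC from -0.96 to -0.62, and it was -0.62 without sam2Δ/sam2Δ replicate 3.

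RPN13, another ubiquitin receptor of the base, lay the other way. It was at 1488, 1235 and 1243 signal in sam2Δ/sam2Δ, against 837, 1160 and 1029 in wildtype. The groups did not overlap, but the log2FC of 0.40 ± 0.19 was under the fold cutoff (adjusted P = 0.431). In sam1Δ/sam1Δ it was at 1003, 964 and 1059, within the range of wildtype.

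RPN12 (chromosome VI, 252505 to 253329, R64), a lid subunit that joins the lid to the base, had the highest log2FC of the 33 in sam2Δ/sam2Δ. Its signal was 2920, 2437 and 2524 in sam2Δ/sam2Δ, against 1118, 1806 and 1808 in wildtype. All sam2Δ/sam2Δ libraries lay above all wildtype libraries, and wildtype replicate 1 was again the lowest. The mean was 2627 ± 257 signal against 1577 ± 398 (SD, n = 3 each), 66.6% higher, with a log2FC of 0.77 ± 0.24 (SE, adjusted P = 0.278). The call rested on single libraries: without wildtype replicate 1 the log2FC was 0.54, under the fold cutoff, and without sam2Δ/sam2Δ replicate 1 it was 0.69 and missed the P cutoff. Without sam2Δ/sam2Δ replicate 3 it was 0.79 and met both. In sam1Δ/sam1Δ, RPN12 was at 1956, 1477 and 1479, with a log2FC of 0.08 ± 0.24.

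Of the other 7 lid genes none was called in sam2Δ/sam2Δ, with 4 above 0 and 3 below. The median of the 8 lid genes was 0.30, with 5 above 0, against -0.08 for the 14 20S genes, of which 4 were above 0. These medians moved with single libraries: without wildtype replicate 1 they were 0.04 for the lid (4 of 8 above 0) and -0.28 for the 20S genes (1 of 14 above 0), and without sam2Δ/sam2Δ replicate 3 they were 0.32 and -0.02. RPN8, the inactive partner of the deubiquitinase, was at 4379, 4181 and 3505 signal in sam2Δ/sam2Δ, against 1862, 4035 and 3488 in wildtype, a log2FC of 0.43 ± 0.32. The structural lid subunits RPN3 and RPN5 had 0.42 ± 0.31 and 0.39 ± 0.24, and for RPN5 the groups did not overlap, at 4796, 4427 and 4510 signal in sam2Δ/sam2Δ against 2573, 4268 and 3874 in wildtype. RPN11, the deubiquitinase itself, was at 2282, 2389 and 1988 in sam2Δ/sam2Δ and 2339, 2061 and 2110 in sam1Δ/sam1Δ, against 1891, 2565 and 2468 in wildtype, with log2FC of -0.05 ± 0.20 in sam2Δ/sam2Δ and -0.08 ± 0.17 in sam1Δ/sam1Δ. RPN6 was lowest of the lid at -0.19 ± 0.28.

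**Figure D5:**
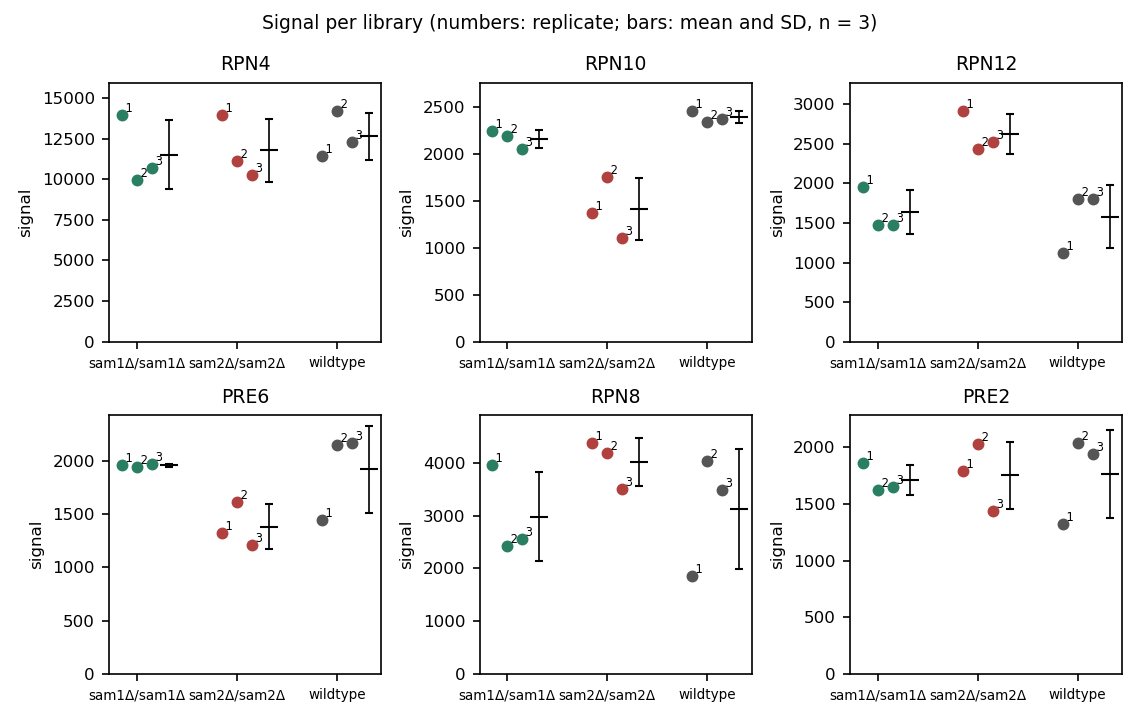
Signal of RPN4, RPN10, RPN12, PRE6, RPN8 and PRE2 (y axes, from 0) in each library of sam1Δ/sam1Δ, sam2Δ/sam2Δ and wildtype (x axes), with replicate numbers and the mean and SD (n = 3) beside the points. RPN10 is at 1100 to 1755 in sam2Δ/sam2Δ and 2336 to 2458 in wildtype, while RPN12 is at 2437 to 2920 in sam2Δ/sam2Δ and 1118 to 1808 in wildtype.

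Ratios within a library do not depend on its scaling factor. The lid to 20S ratio (geometric means of the 8 and the 14 genes) was 1.33, 1.14 and 1.37 in sam2Δ/sam2Δ and 1.11, 0.949 and 0.967 in sam1Δ/sam1Δ, against 0.947, 1.11 and 1.02 in wildtype. All sam2Δ/sam2Δ values were above the other 6. The RPN12 to RPN10 ratio was 2.13, 1.39 and 2.29 in sam2Δ/sam2Δ and 0.873, 0.674 and 0.720 in sam1Δ/sam1Δ, against 0.455, 0.773 and 0.762 in wildtype. These ratios were formed after the values of the genes had been seen, and they are descriptions with no test.

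The third comparison set one mutant against the other. In sam2Δ/sam2Δ against sam1Δ/sam1Δ the same genes were called as against wildtype, RPN12 higher and RPN10 lower, beside 5.13% and 5.05% of 6139 genes tested, 10.2% in all. RPN10 was at 1370, 1755 and 1100 signal in sam2Δ/sam2Δ and 2240, 2191 and 2053 in sam1Δ/sam1Δ, a log2FC of -0.64 ± 0.18 (SE, adjusted P = 0.120). RPN12 was at 2920, 2437 and 2524 in sam2Δ/sam2Δ and 1956, 1477 and 1479 in sam1Δ/sam1Δ, a log2FC of 0.69 ± 0.22 (adjusted P = 0.168). For both genes the mutants did not overlap. Without sam2Δ/sam2Δ replicate 3 the log2FC of RPN10 was -0.48 and no longer met the fold cutoff, while RPN12 had 0.72 and met both. The groups did not overlap for 3 genes that were higher (RPN12, RPN13 and RPN5) and 4 that were lower (RPN10, PRE6, PRE10 and PRE7), beside 12.3% and 13.1% of all genes, 25.4% in all, and the median of the 33 was 0.03 against -0.0093 over all genes tested. PRE6 (-0.51 ± 0.19) and PRE10 (-0.38 ± 0.16) passed the P cutoff of that contrast, as did RPN13 (0.38 ± 0.16), beside 16.7% of all genes, and all 3 were under the fold cutoff.

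The log2FC of subunit genes with and without the PACE letters covered overlapping ranges. In sam2Δ/sam2Δ against wildtype the 27 subunit genes with the 9 letters had log2FC from -0.46 to 0.77 (median -0.0013), and the 5 without them from -0.79 to 0.43 (median 0.03). RPN10 and RPN13, which carry A7G, had -0.79 and 0.40. RPN8, PRE5 and PUP1, which carry G1A, had 0.43, 0.03 and -0.29.

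Genes that work with the proteasome were followed in the same comparisons. Of 10 assembly chaperones none was called in sam1Δ/sam1Δ or sam2Δ/sam2Δ against wildtype (median 0.19 in sam2Δ/sam2Δ and -0.06 in sam1Δ/sam1Δ). Without wildtype replicate 1 those medians were 0.06 for sam2Δ/sam2Δ and -0.12 for sam1Δ/sam1Δ. UMP1, which matures the 20S core, was at 939, 1346 and 1010 signal in sam2Δ/sam2Δ and 1940, 1609 and 1660 in sam1Δ/sam1Δ, against 1269, 1681 and 1887 in wildtype. It was lower in sam2Δ/sam2Δ than in sam1Δ/sam1Δ (log2FC -0.67 ± 0.20, adjusted P = 0.145), beside 5.05% of all genes called lower. Against wildtype its log2FC of -0.55 was under the fold cutoff. Without sam2Δ/sam2Δ replicate 1 the log2FC between the mutants was -0.57, also under it, and without sam2Δ/sam2Δ replicate 3 it was -0.62 and met both cutoffs. HSM3, a chaperone of the base, was higher in sam2Δ/sam2Δ than in sam1Δ/sam1Δ (0.60 ± 0.25, adjusted P = 0.273), beside 5.13% of all genes called higher, and its groups overlapped. With single libraries left out it had 0.50 to 0.80 and lost the call in 5 cases, but not without sam2Δ/sam2Δ replicate 3 (0.71). Against wildtype 8 of the 10 were above 0 in sam2Δ/sam2Δ, and UMP1 and TMA17 were below. TMA17 had -0.45 ± 0.22 with no overlap, as had 11.2% of all genes in the lower direction. None of the 10 chaperone genes held the PACE letters.

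Of 10 proteasome-associated factors 2 were lower in sam2Δ/sam2Δ than in wildtype, beside 4.85% of all genes called lower. FUB1, whose product binds the 20S core, was at 342, 388 and 323 signal in sam2Δ/sam2Δ against 509, 630 and 595 in wildtype (log2FC -0.72 ± 0.17, adjusted P = 0.224). SPG5, a stationary phase factor of proteasome assembly, was at 1632, 1808 and 2181 in sam2Δ/sam2Δ against 3338, 2775 and 2559 in wildtype (-0.63 ± 0.20, adjusted P = 0.282). Its call was lost on leaving out wildtype replicate 1 (-0.52), sam2Δ/sam2Δ replicate 1 (-0.53) or sam2Δ/sam2Δ replicate 2 (-0.61). Both were also lower in sam2Δ/sam2Δ than in sam1Δ/sam1Δ, by log2FC of -0.71 and -0.81, beside 5.05% of all genes called lower. Leaving out sam2Δ/sam2Δ replicate 3 gave FUB1 -0.66 and SPG5 -0.74 against wildtype, both still called. SEM1, the small lid subunit outside the 32, was at 718, 754 and 822 in sam2Δ/sam2Δ and 727, 742 and 782 in sam1Δ/sam1Δ, against 627, 590 and 739 in wildtype, and it was not called.

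Upstream of the proteasome, 2 of 13 substrate delivery genes were lower in sam2Δ/sam2Δ than in wildtype, beside the same 4.85% of all genes. Both encode shuttle proteins that carry ubiquitin chains to the receptors. DDI1, another shuttle gene of the list, was not called. It was at 984, 993 and 737 signal in sam2Δ/sam2Δ against 594, 1112 and 1065 in wildtype. DSK2 was at 1199, 1459 and 952 signal in sam2Δ/sam2Δ against 2226, 2315 and 2269 in wildtype (log2FC -0.94 ± 0.20, adjusted P = 0.222). Its groups did not overlap, as for 11.2% of all genes in the lower direction, and the sam1Δ/sam1Δ libraries were at 2047, 2268 and 2036. RAD23 was at 972, 1187 and 1280 in sam2Δ/sam2Δ against 2274, 1503 and 1510 in wildtype (-0.60 ± 0.23, adjusted P = 0.339). Its call too was lost on leaving out wildtype replicate 1 (-0.40), sam2Δ/sam2Δ replicate 1 (-0.49) or sam2Δ/sam2Δ replicate 2 (-0.63). With sam2Δ/sam2Δ replicate 3 left out DSK2 had -0.78 and RAD23 -0.69, and both met the cutoffs. The polyubiquitin gene UBI4 was at 16665, 15621 and 14706 in sam2Δ/sam2Δ and 19511, 16395 and 17135 in sam1Δ/sam1Δ, against 14689, 19806 and 17312 in wildtype, and none of the 5 genes of ubiquitin and its activating enzyme was called in any comparison.

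The genes that act on RPN4 were not called either. Among 4 genes of Rpn4 turnover, the ubiquitin ligase gene UBR2 had log2FC of 0.27 ± 0.18 in sam2Δ/sam2Δ and 0.04 ± 0.14 in sam1Δ/sam1Δ. Among the 4 genes of its activators in sam2Δ/sam2Δ, HSF1 had 0.44 ± 0.21, PDR3 0.29 ± 0.22, YAP1 0.24 ± 0.19 and PDR1 0.12 ± 0.16. HSF1, at a locus that holds 3 genes, was at 2157, 1503 and 1616 signal in sam2Δ/sam2Δ against 1103, 1469 and 1301 in wildtype. Its groups did not overlap, as for 11.1% of all genes in the higher direction. In sam1Δ/sam1Δ all 4 activator genes lay between -0.03 and 0.17.

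Other target genes of those activators differed in part. Of 12 Yap1 targets 5 were lower in sam2Δ/sam2Δ than in wildtype (OYE3, GSH1, SOD1, GRE2 and TRR1), beside 4.85% of all genes called lower, and the median of the 12 was -0.66 against -0.0075 over all genes tested. The 2 above 0, neither of them called, were the transporter gene ATR1 (0.82 ± 0.39) and the thioredoxin gene TRX2 (0.37 ± 0.27). OYE3, an NADPH oxidoreductase, was at 481, 392 and 462 signal in sam2Δ/sam2Δ against 1599, 2284 and 1825 in wildtype, with a log2FC of -2.08 ± 0.20 (adjusted P = 0.0251), and it was the only listed gene with an adjusted P under 0.05 against wildtype. GSH1, the first enzyme of glutathione synthesis, had -0.98 ± 0.17 (adjusted P = 0.214). Both were called without sam2Δ/sam2Δ replicate 3 too, at -2.11 for OYE3 (adjusted P = 0.167, in a range of 0.00202 to 0.410 over the alternatives tried for it) and -0.97 for GSH1. SOD1 (-0.85 ± 0.29), GRE2 (-0.72 ± 0.21) and TRR1 (-0.61 ± 0.22) each lost the call without at least 1 single library, and GRE2 lies at a locus of 2 genes. With sam2Δ/sam2Δ replicate 3 left out GRE2 (-0.74) was still called, and SOD1 (-0.68) and TRR1 (-0.48) were not. In sam2Δ/sam2Δ against sam1Δ/sam1Δ, 4 of the 12 were lower, OYE3, GRE2, GSH1 and OYE2, beside 5.05% of all genes called lower. The median of the 12 between the mutants was -0.52, and -0.36 without sam2Δ/sam2Δ replicate 3.

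Of 18 chaperone targets of Hsf1, 1 was higher in sam2Δ/sam2Δ than in wildtype, CUR1 (0.86 ± 0.33, adjusted P = 0.344), a factor that sorts misfolded proteins, beside 5% of all genes called higher. The list had a median of 0.40 with 16 of 18 above 0, but this rested on wildtype replicate 1, without which the median was -0.23 with 6 of 18 above 0. Without wildtype replicate 1 CUR1 had a log2FC of 0.47, and without any 1 of the sam2Δ/sam2Δ libraries it missed the P cutoff. BTN2, a relative of CUR1, had the largest value of the list, 1.02 ± 0.69, and was not called. It was at 1786 signal in wildtype replicate 1 and at 11310 and 9266 in the other wildtype libraries, and without replicate 1 its log2FC was 0.18. Of 8 Pdr1 and Pdr3 targets, the membrane protein gene RSB1 was lower in sam1Δ/sam1Δ than in wildtype (-0.78 ± 0.21, adjusted P = 1.00), beside 0.524% of all genes called lower. RSB1 was at 1244, 845 and 761 signal in sam1Δ/sam1Δ against 1666, 1476 and 1644 in wildtype. The transporter gene YOR1 was higher in sam2Δ/sam2Δ than in sam1Δ/sam1Δ (0.71 ± 0.21, adjusted P = 0.135), beside 5.13% of all genes called higher. YOR1 had 0.75 and met both cutoffs when sam2Δ/sam2Δ replicate 3 was left out. SSA4 (0.56 ± 0.23) and AHP1 (-0.50 ± 0.28) had the largest values among the listed genes not called in sam1Δ/sam1Δ.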

How the data were processed

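Poly-A RNA of the 9 libraries was prepared with a stranded kit. Per the submitters' processing notes and the study's methods, reads were aligned to the S. cerevisiae R64 genome with TopHat2 2.0.13 and gene values were made with Cufflinks and Cuffnorm 2.2.1, and the normalization setting and the strand setting of the counting are not given in the sources used here. The deposited signal is thus the estimated reads of a gene divided by a library factor, by the authors, and not by gene length. Locus starts in the file count from 0 and were raised by 1, after which all 33 starts equalled those of RefSeq.

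Genes that reached a signal of 10 in 3 or more libraries of a comparison were tested on log2(signal + 1) with limma 3.58.1 (R 4.3.3, empirical Bayes with trend, two-sided), with each mutant and wildtype in a fit of their own and the mutants compared in a fit of all 9 libraries. Fold changes are on that scale. A gene was called where its P before adjustment was 0.05 or less and its log2FC 0.58 or more in either direction, as in the study, and Benjamini-Hochberg adjusted P-values over all genes tested were given beside it. The scripts were tested on simulated data. The values are not counts, so no counting intervals are given.

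The 33 genes and the lists of related genes were chosen with earlier results of these data known, and they are described by counts and medians. Library values were printed for RPN4, PRE3, PUP1, PRE2, RPN11, genes that met the cutoffs and the highest and lowest of the 33 in each comparison. From the other lists the called genes, up to 3 of the largest changes per comparison and UMP1, SEM1, UBI4, UBR2, PDR1, PDR3, YAP1 and HSF1 were named. Other genes of the 33 with library values (PRE6, RPN13, RPN5, RPN8) and the A7G and G1A stretches were picked after the values or sequences had been seen. Other pseudocounts, scalings, filters, fits and left-out libraries were tried. Medians of lists and parts without wildtype replicate 1 or sam2Δ/sam2Δ replicate 3 were added after the data had been seen.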

Additional observations from a re-analysis of the deposited data

Results flagged for a closer look

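RPN10 and RPN12 were marked for a closer look because the effects of the mutants on them differed by a test of the difference itself, before adjustment of the P-values. The contrast of sam2Δ/sam2Δ with sam1Δ/sam1Δ in limma gave a log2FC of -0.64 for RPN10 (adjusted P = 0.120, lower in 3 of 3 sam2Δ/sam2Δ libraries) and of 0.69 for RPN12 (adjusted P = 0.168, higher in 3 of 3). In that contrast 10.2% of all genes tested met the cutoffs. Without sam2Δ/sam2Δ replicate 3 the log2FC of RPN10 was -0.48, under the fold cutoff. Against the shared wildtype libraries RPN10 had -0.79 in sam2Δ/sam2Δ and -0.15 in sam1Δ/sam1Δ, and RPN12 had 0.77 in sam2Δ/sam2Δ and 0.08 in sam1Δ/sam1Δ.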

How the results depend on the processing

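The count of called genes among the 33 was 0 in sam1Δ/sam1Δ against wildtype under every alternative run. Of the 2 called in sam2Δ/sam2Δ against wildtype, 1 (RPN10) was left with a replicate block and 0 at an adjusted P of at most 0.05, and leaving out single libraries gave 1 to 2. Of the 2 called in sam2Δ/sam2Δ against sam1Δ/sam1Δ, 0 were left at an adjusted P of at most 0.05, and leaving out single libraries gave 1 to 3. Over all genes, calls in sam1Δ/sam1Δ against wildtype numbered 70, and 41 to 355 with single libraries left out, the 355 without wildtype replicate 1. In sam2Δ/sam2Δ against wildtype they numbered 601, and 389 with the replicate block. At an adjusted P of at most 0.05 they were 6 in sam1Δ/sam1Δ and 7 in sam2Δ/sam2Δ against wildtype, and 37, in place of 625, between the mutants. With limma-voom the calls in sam2Δ/sam2Δ split into 543 higher and 178 lower, in place of 305 and 296, and those in sam1Δ/sam1Δ into 66 and 25, in place of 38 and 32. Scaling by library size alone, with the main test kept, gave 545 and 181 in sam2Δ/sam2Δ and 64 and 26 in sam1Δ/sam1Δ. Same-numbered libraries of sam1Δ/sam1Δ and wildtype had deviations correlated at -0.85, -0.78 and -0.60 across genes, those of sam2Δ/sam2Δ and wildtype at -0.66, 0.14 and -0.64, and those of sam2Δ/sam2Δ and sam1Δ/sam1Δ at 0.69, -0.19 and 0.65. In no comparison were all 3 above 0.1, so the numbers were not taken to pair the libraries. Libraries with different numbers were correlated as strongly. Wildtype replicate 1 had 0.84 with sam1Δ/sam1Δ replicate 2 and 0.70 with sam2Δ/sam2Δ replicate 3. Wildtype replicate 3 had -0.70 with sam1Δ/sam1Δ replicate 2. No fit held a term for variation shared by libraries with different numbers.

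Scaling by library size alone or limma-voom moved the median of all genes to 0.09 in sam1Δ/sam1Δ and 0.15 in sam2Δ/sam2Δ against wildtype, and small values crossed 0 with it. In sam1Δ/sam1Δ, limma-voom and library size gave 0.076 and 0.079 for PRE2, 0.042 and 0.048 for PRE3, and 0.020 and 0.022 for RPN11. In sam2Δ/sam2Δ they gave 0.15 and 0.16 for PRE2, 0.12 and 0.13 for PRE3, 0.11 and 0.11 for RPN11, and 0.050 and 0.052 for RPN4, and PRE2 had 0.0049 with TMM and 0.0013 with median-of-ratios factors. Leaving out single libraries turned the sign of other values that were near 0. The ranges were -0.018 to 0.19 for PRE10, -0.22 to 0.094 for PRE2, -0.41 to 0.15 for PRE3, -0.22 to 0.0042 for RPN11 and -0.16 to 0.19 for RPN12 in sam1Δ/sam1Δ against wildtype. They were -0.20 to 0.14 for PRE2, -0.39 to 0.17 for PRE3 and -0.18 to 0.035 for RPN11 in sam2Δ/sam2Δ against wildtype, and -0.092 to 0.16 for PRE2, -0.11 to 0.20 for PRE3, -0.26 to 0.059 for PUP1, -0.025 to 0.11 for RPN11 and -0.092 to 0.18 for RPN4 in sam2Δ/sam2Δ against sam1Δ/sam1Δ. Apart from limma-voom, the planned count-based tests were not run, because the values are not counts. Limma-voom also models its input as counts and was run on the deposited signal, so its calls carry that limit.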
